A study of Arabidopsis thaliana with 9 samples.

Results

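The JAZ (jasmonate ZIM-domain) genes encode the repressors of jasmonate signalling in Arabidopsis thaliana. Members were taken by locus from a fixed list of 10 genes, namely JAZ1 (AT1G19180), JAZ2 (AT1G74950), JAZ3 (AT3G17860), JAZ5 (AT1G17380), JAZ6 (AT1G72450), JAZ7 (AT2G34600), JAZ8 (AT1G30135), JAZ9 (AT1G70700), JAZ10 (AT5G13220) and JAZ12 (AT5G20900). All 10 were among the 21176 genes of the deposited table. RNA was sequenced from rosette leaves of Col-0 plants, 5 weeks old, grown in hydroponic culture under 13 h of light and 11 h of darkness, in 3 groups of 3 libraries. Phase 1 plants were brought to 90 mM NaCl in daily steps of 15 mM and harvested 2 days after that level was reached. Phase 0 plants were harvested 1 h after a single shock of 105 mM NaCl. Control plants are labelled as controls. All groups share the ecotype and the tissue, and the labels name no transgene or mutation. The labels do not give the hour of harvest or the number of plants behind a replicate, so p-values measure the spread between these libraries only.

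In a leaf without much jasmonate, JAZ proteins bind MYC-type transcription factors and recruit the co-repressor TOPLESS, directly or through the adaptor NINJA. When the hormone conjugate jasmonoyl-isoleucine is present, the F-box protein COI1 binds JAZ proteins and marks them for degradation, which frees the MYC factors. JAZ genes are themselves targets of MYC factors, which bind the G-box CACGTG, so their transcripts are commonly used as a readout of the pathway. The family is not uniform: JAZ7 and JAZ8 lack the canonical degron that COI1 recognises, and splice variants of JAZ10 resist degradation.

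G-box letters stand close to the annotated start of JAZ2, JAZ3, JAZ7 and JAZ8, and further upstream in JAZ9. Stretches of 60 bases around them are shown here because the G-box is a DNA element that MYC factors bind. Binding at these sites was not measured. The sequence and gene starts are those of the RefSeq copy of assembly TAIR10.1, each stretch is written 5′ to 3′ on the strand of its gene, and capitals mark CACGTG. The stretches lie at chr1:28150480-28150539 on the minus strand for JAZ2, chr3:6119598-6119657 on the plus strand for JAZ3, chr2:14572969-14573028 on the plus strand for JAZ7, chr1:10596292-10596351 on the plus strand for JAZ8 and chr1:26654136-26654195 on the plus strand for JAZ9.
JAZ2: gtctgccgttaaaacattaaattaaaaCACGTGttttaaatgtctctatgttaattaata
JAZ3: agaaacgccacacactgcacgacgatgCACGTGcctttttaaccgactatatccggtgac
JAZ7: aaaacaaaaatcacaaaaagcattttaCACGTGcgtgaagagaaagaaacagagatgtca
JAZ8: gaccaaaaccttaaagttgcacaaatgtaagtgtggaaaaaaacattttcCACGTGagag
JAZ9: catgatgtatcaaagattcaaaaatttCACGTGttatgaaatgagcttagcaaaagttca

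Counting the first transcribed base as +1, the G-box began at -66 in JAZ2, -34 in JAZ7 and -10 in JAZ8, while JAZ3 had one at -140 and another at -82, and JAZ9 had one further upstream at -366. In the window of 250 bases before to 50 bases after the start, CACGTG was present in 4 of 10 JAZ genes, JAZ2, JAZ3, JAZ7 and JAZ8, and in 7.68% of 27443 promoters of the same length. CACGTG reads the same on both strands. Extending the window to 500 bases upstream, a choice made after seeing the data, added JAZ6 and JAZ9 for 6 of 10, against 9.35% of promoters. The G-box of JAZ6 began at -478, and the stretch around it, which overlaps another annotated gene, is not shown. The related letters AACGTG, searched on both strands, were found in the shorter window of JAZ3, JAZ5, JAZ6 and JAZ12, and in 8.95% of all promoters. The evening element AAAATATCT stood in 1 of 10, JAZ10, against 2.82% of promoters, and the W-box letters TTGACC in 2 of 10, JAZ6 and JAZ8, against 14.2%. A match describes letters and not a bound site.

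Between Phase 1 and Control 5 of 9 tested JAZ genes were higher, where the share of all tested genes called higher was 17.4%. JAZ9 had the largest difference in normalised counts, while the fitted fold differences of JAZ5 (6.88) and JAZ10 (5.06) were larger. The deposited values are normalised counts, which are read counts per gene scaled between libraries and rounded to whole numbers. JAZ9, which encodes a repressor of MYC factors, had 23421, 7473 and 5903 normalised counts in Phase 1 replicates 1, 2 and 3, then 2732, 3759 and 4551 in Phase 0, and 2940, 2083 and 2262 in Control. Every Phase 1 library lay above every Phase 0 and Control library, and the Phase 0 and Control ranges overlapped. Differences were tested with limma on log2(value + 1) in a single fit of all 9 libraries, over 18650 genes with a mean normalised count of at least 10, with Benjamini-Hochberg adjustment and a threshold of 0.05. On that log2 scale JAZ9 was 2.07 ± 0.42 (SE) higher in Phase 1 than in Control, a 4.21-fold difference (limma adjusted p = 0.00384), and 1.49 ± 0.42 higher in Phase 1 than in Phase 0 (2.81-fold, limma adjusted p = 0.0251). Without Phase 1 replicate 1, JAZ9 was 2.76-fold higher than in Control (limma adjusted p = 0.0016). Between Phase 0 and Control its log2 difference was 0.58 (limma adjusted p = 0.487). In bulk leaf RNA, a change in the number of cells of a type and a change in RNA per cell cannot be told apart. As the labels do not give the hour of harvest, a difference in hour and an effect of salt cannot be told apart either.

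JAZ6, another repressor of MYC factors, had 7007, 2443 and 2215 normalised counts in Phase 1, then 1229, 1246 and 1654 in Phase 0, and 1281, 1187 and 1428 in Control. Phase 1 again lay wholly above both other groups, whose values were intermixed. JAZ6 rose 2.59-fold in Phase 1 over Control (log2 difference 1.37 ± 0.36 SE, limma adjusted p = 0.0131) and 2.46-fold over Phase 0 (1.30 ± 0.36 SE, limma adjusted p = 0.0212).

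JAZ5, a jasmonate-induced repressor, had 1605, 330 and 181 normalised counts in Phase 1, then 118, 123 and 368 in Phase 0, and 116, 52 and 47 in Control. Its Phase 1 values exceeded every Control value but overlapped Phase 0, where replicate 3 stood above replicates 1 and 2. The fitted difference between Phase 1 and Control was 6.88-fold (log2 2.78 ± 0.73 SE, limma adjusted p = 0.0135), and 3.68-fold without Phase 1 replicate 1 (limma adjusted p = 0.0295). Without Phase 1 replicate 3 its log2 difference was 3.45. JAZ10 followed the same layout, with 215, 64 and 44 normalised counts in Phase 1, then 22, 25 and 101 in Phase 0, and 15, 18 and 15 in Control. Its rise in Phase 1 over Control was 5.06-fold (log2 2.34 ± 0.64 SE, limma adjusted p = 0.0166), and without Phase 1 replicate 1 the call was lost, at 3.19-fold (limma adjusted p = 0.0587). An annotated non-coding gene on the opposite strand overlaps JAZ10 by 71 bases, and the sources used here do not say whether counting used strand.

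JAZ3, a repressor with G-box letters in its promoter window as shown above, had 1364, 442 and 586 normalised counts in Phase 1, then 335, 371 and 423 in Phase 0, and 222, 402 and 348 in Control. Its lowest Phase 1 value, 442, stood just above the highest of the other 6 libraries, 423. JAZ3 rose 2.25-fold in Phase 1 over Control (log2 1.17 ± 0.36 SE, limma adjusted p = 0.0295), and this call was lost when Phase 1 replicate 1 was left out (0.69, limma adjusted p = 0.0698), as well as without Control replicate 1 (limma adjusted p = 0.0889) or Control replicate 3 (limma adjusted p = 0.0535).

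**Figure D1:**
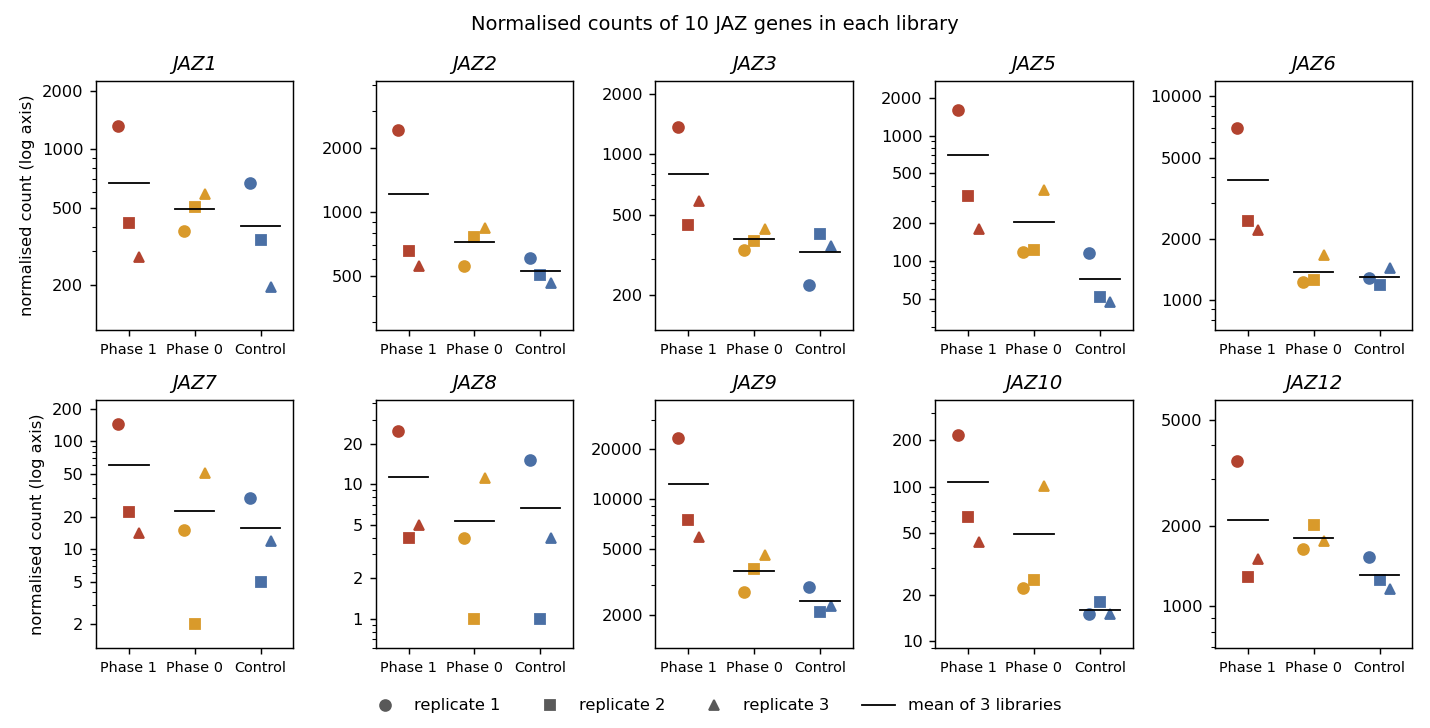
Normalised counts of the 10 JAZ genes in each library, 1 panel per gene, on log axes whose ranges differ between panels. Points are replicates 1, 2 and 3 of Phase 1, Phase 0 and Control, and bars are the means of 3 libraries. Phase 1 replicate 1 is the highest Phase 1 point in every panel, and in the JAZ3, JAZ6 and JAZ9 panels all Phase 1 points lie above all others.

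The remaining members did not pass the test in any comparison. JAZ1, an early jasmonate-induced repressor, had 1317, 416 and 280 normalised counts in Phase 1, then 381, 507 and 586 in Phase 0, and 674, 341 and 197 in Control, with overlap between all groups (Phase 1 against Control, log2 0.59, limma adjusted p = 0.432). JAZ2, known for its role in stomata, had 2454, 652 and 557 normalised counts in Phase 1, then 555, 762 and 843 in Phase 0, and 607, 505 and 461 in Control. Its Phase 1 replicates 2 and 3 stood within the combined range of the other groups (Phase 1 against Control, log2 0.88, limma adjusted p = 0.152). JAZ12 had 3500, 1287 and 1496 normalised counts in Phase 1, then 1640, 2004 and 1752 in Phase 0, and 1521, 1256 and 1154 in Control, so all Phase 0 values lay above all Control values while Phase 1 spanned both. Its log2 difference was 0.54 between Phase 1 and Control (limma adjusted p = 0.198) and 0.46 between Phase 0 and Control (limma adjusted p = 0.449). JAZ12 overlaps a protein-coding and a non-coding gene on the opposite strand, by 28 and 211 bases.

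JAZ7 and JAZ8, the members without the canonical degron, were scarce. JAZ7 had 143, 22 and 14 normalised counts in Phase 1, then 15, 2 and 51 in Phase 0, and 30, 5 and 12 in Control, and its groups overlapped throughout (Phase 1 against Control, log2 1.45, limma adjusted p = 0.327). JAZ8 had 25, 4 and 5 normalised counts in Phase 1, then 4, 1 and 11 in Phase 0, and 15, 1 and 4 in Control. Its mean was under 10, so 9 of 10 members were tested, and a fit without that filter gave JAZ8 a log2 difference of 0.76 between Phase 1 and Control, with no call. In the 7 libraries whose depth could be read from the values, 3 reads correspond to 2.75 to 3.96 normalised counts, so the low JAZ8 values are a few reads each.

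Between Phase 1 and Control, 5 of 9 tested JAZ genes rose, JAZ3, JAZ5, JAZ6, JAZ9 and JAZ10, and none fell, where 17.4% of all 18650 tested genes rose, 18.6% fell and 36.1% changed in either direction. The median log2 difference was 1.37 over the tested JAZ genes and 0.00 over all tested genes. The 5 genes that rose were also those whose Phase 1 values all exceeded their Control values, which makes 5 of 10 members against 23.7% of tested genes. Between Phase 1 and Phase 0, 2 of 9 rose, JAZ6 and JAZ9, and none fell, where 13.7% of tested genes rose, 14.4% fell and 28.1% changed in either direction. The median log2 difference was 1.12 for the JAZ genes and -0.01 for all genes. Phase 1 exceeded Phase 0 with no overlap in 3 of 10 members, JAZ3, JAZ6 and JAZ9, where 24.9% of tested genes did so. Both of these calls were lost without Phase 0 replicate 1 (limma adjusted p = 0.0642 for JAZ6 and 0.0848 for JAZ9) and without Phase 0 replicate 2 (0.0702 for JAZ6 and 0.0636 for JAZ9). The comparisons of Phase 1 share the same Phase 1 libraries.

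At 1 h after the salt shock no JAZ gene passed the test. Between Phase 0 and Control, limma called 0 of 9 JAZ genes at an adjusted p under 0.05 and 0 of 9 at an unadjusted p under 0.05, where 2.93% of all tested genes were called after adjustment and 18.8% before it, and 1.28% of all tested genes were called higher in Phase 0. All 9 log2 differences were positive, with a median of 0.44 against 0.01 over all genes. The largest was that of JAZ5, 2.63-fold on the fitted scale (limma adjusted p = 0.331), followed by JAZ10 with 2.32-fold (limma adjusted p = 0.334), and the smallest that of JAZ7, with a log2 difference of 0.02, whose sign turned under other settings. JAZ5, JAZ10 and JAZ12 had every Phase 0 value above every Control value, 3 of 10 members where 11.1% of tested genes were in that position. For JAZ5 the gap was between 118 in Phase 0 and 116 in Control, and for JAZ10 between 22 in Phase 0 and 18 in Control.

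**Figure D2:**
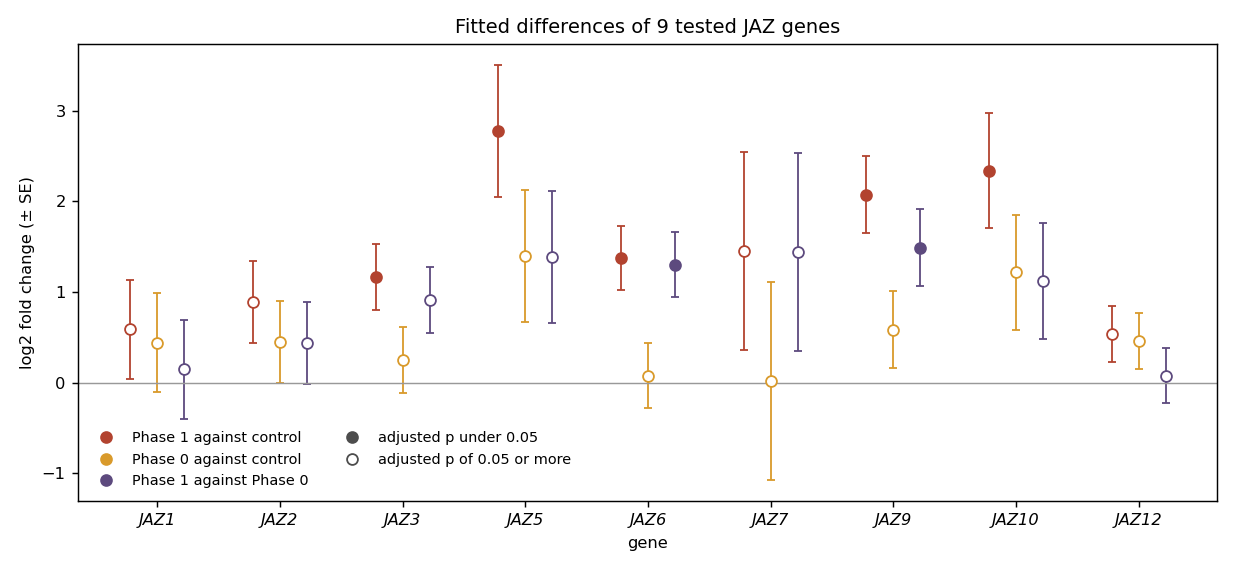
Differences of the 9 tested JAZ genes on the log2(value + 1) scale, with standard errors, for Phase 1 against Control, Phase 1 against Phase 0 and Phase 0 against Control. Filled points passed the threshold of 0.05 after adjustment over 18650 genes; these are 5 genes, 2 genes and 0 genes in those comparisons.

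The Phase 1 libraries were far from alike for this family. Phase 1 replicate 1 gave the highest Phase 1 value for 10 of 10 JAZ genes, where it was the highest of its group for 32.1% of all tested genes. Its value divided by the mean of the other 2 Phase 1 libraries ran from 2.52 for JAZ12 to 7.94 for JAZ7. All 9 tested members stood at least 1 log2 unit above the mean of those 2 libraries, where 2.45% of tested genes did, and the median JAZ gene stood 1.94 above. Within the other groups, Phase 0 replicate 3 was highest for 9 of 10 members, with JAZ12 as the exception, where it was highest for 27.2% of tested genes. Control replicate 1 was highest for 7 of 10 members, with JAZ3, JAZ6 and JAZ10 as exceptions, where it was highest for 40.2% of tested genes.

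Without Phase 1 replicate 1, the JAZ genes called higher in Phase 1 than in Control fell to 3 of 9, where 12.3% of tested genes were higher. These were JAZ5, JAZ6 and JAZ9, with JAZ6 at 1.80-fold (log2 0.84, limma adjusted p = 0.00482). JAZ3 and JAZ10 missed the threshold, and the log2 difference of JAZ1 turned to -0.06. Against Phase 0, JAZ6 and JAZ9 still passed without that library (0.77 with limma adjusted p = 0.00927, and 0.88 with 0.0231), and 9.76% of tested genes were then higher. JAZ1, JAZ2 and JAZ12, which did not pass, had log2 differences of -0.50, -0.23 and -0.37 between Phase 1 and Phase 0 without it.

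The same library was also the highest of its group for 12 of 13 jasmonate synthesis genes, with a median of 1.58 log2 units above the other 2 Phase 1 libraries, for 9 of 9 jasmonate output genes, with a median of 2.03, and for 8 of 10 turnover genes, with a median of 1.81. It was also the highest for 10 of 12 perception genes and JAZ partners, but with a median of only 0.20, while the median was -0.09 for touch-responsive genes and 0.16 for salicylate-responsive genes. In Control replicate 1 the touch genes had a median 1.77 above the other 2 Control libraries and the salicylate genes 1.45 above, beside 0.34 for the JAZ genes. The part of these differences between libraries in the JAZ results was not tested beyond leaving libraries out.

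**Figure D3:**
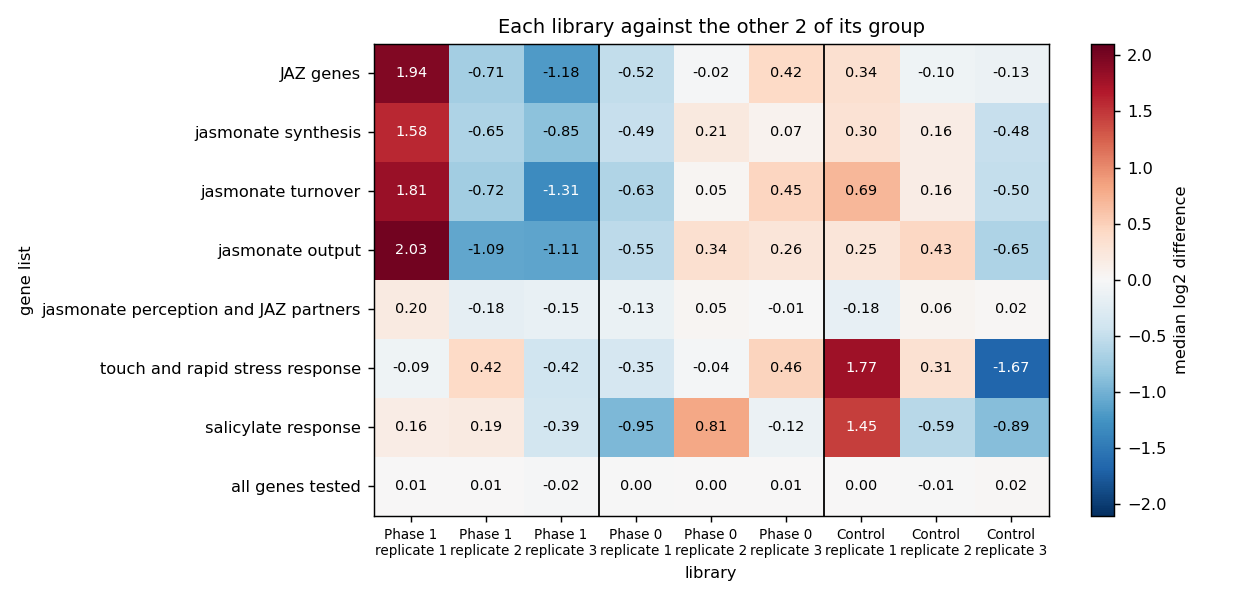
Heat map of the median standing of each gene list in each library, as the log2 value of the library minus the mean of the other 2 libraries of its group. Columns are the 9 libraries ordered Phase 1, Phase 0 and Control. The JAZ, synthesis, turnover and output lists have 1.94, 1.58, 1.81 and 2.03 in Phase 1 replicate 1, while the touch list has 1.77 in Control replicate 1.

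Levels of different genes were compared per kilobase of annotated exon length. Counting the normalised counts per kilobase, JAZ9 averaged 6922 ± 5470 in Phase 1, 2077 ± 515 in Phase 0 and 1370 ± 255 in Control (SD, n = 3 each), and was the most abundant member in all 9 libraries. JAZ12 averaged 1937 ± 1130 in Phase 1, 1664 ± 172 in Phase 0 and 1212 ± 175 in Control, and its range overlapped that of JAZ9 in Phase 0 and Control. JAZ6 averaged 2177 ± 1514 in Phase 1, 771 ± 135 in Phase 0 and 727 ± 68.0 in Control. In Control the order from high to low was JAZ9, JAZ12, JAZ6, JAZ2, JAZ1, JAZ3, JAZ5, JAZ7, JAZ10 and JAZ8. Neighbours in that order were separated without overlap only between JAZ12 and JAZ6, JAZ6 and JAZ2, and JAZ3 and JAZ5. In Phase 0 the order was the same, and the separated neighbours were JAZ12 and JAZ6, JAZ6 and JAZ2, JAZ2 and JAZ1, and JAZ1 and JAZ3. In Phase 1 JAZ6 stood above JAZ12 in 2 of 3 libraries and JAZ5 above JAZ3 in 1 of 3, and the wide Phase 1 ranges left only JAZ3 and JAZ7 separated without overlap.

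The make-up of the JAZ transcript pool differed between Phase 1 and the other groups in a way that Phase 1 replicate 1 shared with the other Phase 1 libraries. Between Phase 0 and Control the shares of every member overlapped. Of the summed JAZ level per kilobase, JAZ9 made up 51.6% on average in Phase 1 (48.1% to 53.6%), 36.3% in Phase 0 (33.3% to 39.0%) and 32.9% in Control (30.9% to 34.1%). No Phase 1 library overlapped the other groups. JAZ12 made up 16.0% in Phase 1 (13.1% to 20.0%), 29.8% in Phase 0 (24.6% to 32.8%) and 29.2% in Control (28.1% to 30.6%), again with Phase 1 apart from both. JAZ2 averaged 6.37% in Phase 1, 9.22% in Phase 0 and 9.20% in Control, with all Phase 1 libraries below all others. JAZ6 made up 17.0% in Phase 1 (15.9% to 17.9%), 13.7% in Phase 0 (12.1% to 14.9%) and 17.8% in Control (14.7% to 21.0%), with Phase 1 above Phase 0 in all libraries and overlapping Control. The scarce members JAZ5 and JAZ10 took 2.14% and 0.407% in Phase 1, 1.65% and 0.429% in Phase 0, and 0.803% and 0.207% in Control. For both genes each Phase 1 library exceeded each Control library. Their Phase 0 means lean on replicate 3. In Phase 0 replicates 1, 2 and 3 JAZ5 took 1.23%, 1.03% and 2.70%, and JAZ10 0.250%, 0.228% and 0.808%. Shares add up to a whole, so a larger share of JAZ9 lowers those of other members. JAZ12 had a lower share in Phase 1, where its normalised counts averaged 2094, against 1310 in Control. That Phase 1 mean rests on replicate 1 (3500). Replicates 2 and 3 had 1287 and 1496, within the Control range of 1154 to 1521. Shares were not tested.

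**Figure D4:**
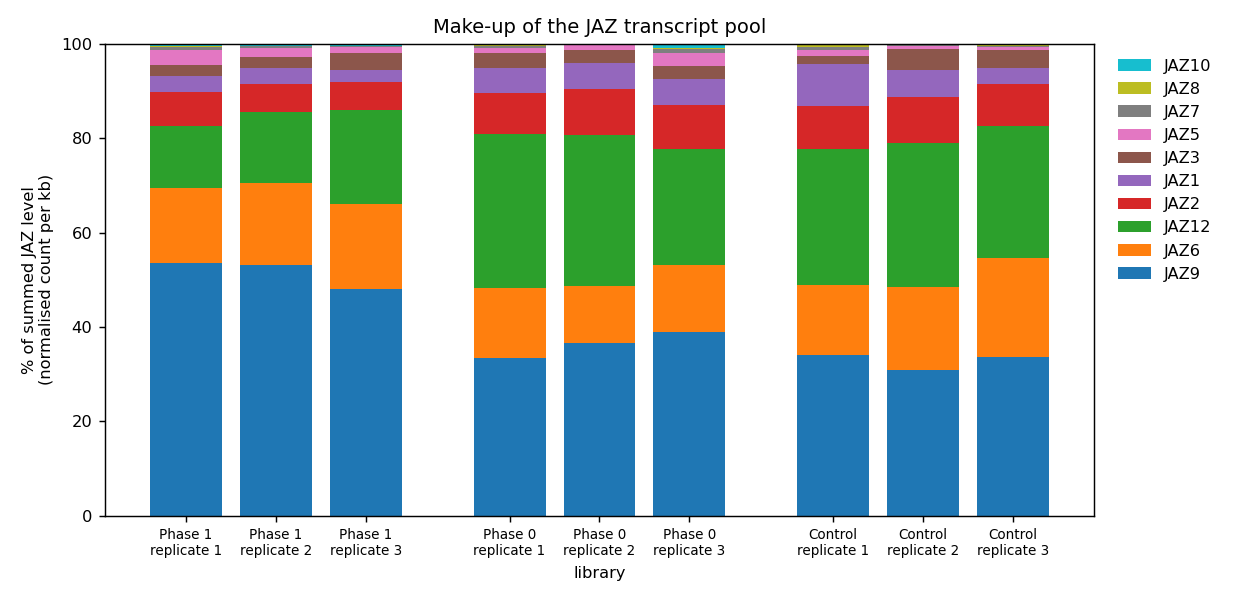
Stacked bars of the share of each JAZ gene in the summed JAZ level per kilobase, in percent, for the 9 libraries ordered Phase 1, Phase 0 and Control. JAZ9 takes 48.1% to 53.6% in Phase 1 and at most 39.0% elsewhere, and JAZ12 at most 20.0% in Phase 1 and at least 24.6% elsewhere.

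Summed over the 10 members, the level per kilobase was 24674, 7927 and 6919 in Phase 1, then 4627, 5784 and 6588 in Phase 0, and 4870, 3798 and 3801 in Control. All Phase 1 sums lay above all others, although Phase 1 replicate 3 and Phase 0 replicate 3 differed little, and Phase 0 overlapped Control through its replicate 1.

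Across the 9 libraries each member's log2 level followed the mean of the other members, with Pearson's r from 0.73 for JAZ7 to 0.96 for JAZ5. After subtraction of group means r ran from 0.63 for JAZ3 to 0.97 for JAZ5. These points share library depth and the high Phase 1 replicate 1, so the coefficients are descriptions. The genes most like the mean JAZ profile by Pearson's r over the 9 libraries, outside the members, were ADC2 (0.970), AT1G14130 (0.969), AT4G08170 (0.967), ILL6 (0.965), AT4G35160 (0.965) and AAS (0.963). ADC2, which encodes arginine decarboxylase of polyamine synthesis, had 20686, 4537 and 4357 normalised counts in Phase 1, then 2194, 3229 and 3399 in Phase 0, and 2236, 1945 and 1871 in Control. ILL6, an amidohydrolase that cleaves jasmonoyl-isoleucine, had 2014, 414 and 277 normalised counts in Phase 1, then 165, 187 and 245 in Phase 0, and 227, 168 and 127 in Control. In both genes Phase 1 replicate 1 stood apart and Phase 1 lay above the other groups.

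Among 6 other genes of the JAZ and wider TIFY family, 1 rose in Phase 1 over Control and none fell, a share near the 17.4% of all tested genes that rose. That gene, AT3G22275, which carries no name in the annotation used, had 181, 20 and 35 normalised counts in Phase 1, then 5, 5 and 54 in Phase 0, and 4, 0 and 0 in Control (limma adjusted p = 0.00518). Its Control level was at the limit of detection, so no fold is given. JAZ11 had 341, 225 and 286 normalised counts in Phase 1, then 262, 251 and 262 in Phase 0, and 280, 290 and 273 in Control, and JAZ4 stayed between 12 and 28 in all libraries. Neither passed the test in any comparison, and none of the 6 passed between Phase 0 and Control, where limma gave 1 at an unadjusted p under 0.05, or between Phase 1 and Phase 0, where it gave 0.

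Of 12 genes for jasmonate perception and for JAZ partners, 7 rose in Phase 1 over Control and none fell, where 17.4% of all tested genes rose and 18.6% fell. COI1, the receptor that targets JAZ proteins, had 1658, 1620 and 1496 normalised counts in Phase 1, then 1078, 1149 and 1178 in Phase 0, and 1034, 980 and 968 in Control. Its Phase 1 values lay above all others and close together, 0.68 ± 0.10 (SE) higher than Control on the log2 scale (limma adjusted p = 0.000644) and 0.49 higher than Phase 0 (limma adjusted p = 0.00541). MYC4, a transcription factor bound by JAZ proteins, had 2313, 1940 and 2275 normalised counts in Phase 1, then 976, 1083 and 1090 in Phase 0, and 846, 930 and 1004 in Control (Phase 1 against Control, log2 1.23, limma adjusted p = 4.55e-05). The co-repressor TPL (TOPLESS) rose by 0.70 in Phase 1 over Control (limma adjusted p = 0.0033) and by 0.77 over Phase 0 (limma adjusted p = 0.00243). AT4G00870, which has no name in the annotation used, had 91, 95 and 95 normalised counts in Phase 1, then 58, 32 and 46 in Phase 0, and 16, 12 and 27 in Control, ordered without overlap. It rose by 2.37 in Phase 1 over Control (limma adjusted p = 0.000353).

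NIG1 (AT5G46830), annotated as NaCl-inducible gene 1 and a MYC-type bHLH factor, was the member of this list that passed in all 3 comparisons. It had 2822, 1971 and 2149 normalised counts in Phase 1, then 421, 390 and 527 in Phase 0, and 111, 241 and 158 in Control, so the groups were ordered without overlap. The log2 difference was 3.81 ± 0.26 (SE) for Phase 1 against Control (limma adjusted p = 5.79e-06), 2.37 for Phase 1 against Phase 0 (limma adjusted p = 0.000107) and 1.45 for Phase 0 against Control (limma adjusted p = 0.017). The Phase 0 call was lost without Phase 0 replicate 3 (limma adjusted p = 0.0959) or Control replicate 3 (limma adjusted p = 0.0676). Between Phase 1 and Phase 0, 5 of the 12 genes rose and none fell, where 13.7% of all tested genes rose and 14.4% fell. MYC2, the factor best known as a JAZ target, was not analysed here.

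Of 13 tested genes of jasmonate synthesis, 2 rose and 1 fell in Phase 1 over Control, where 17.4% of all tested genes rose and 18.6% fell. LOX4, a lipoxygenase of the first step, rose by 1.75 (limma adjusted p = 0.0169) and ACX1, an acyl-CoA oxidase of the peroxisomal steps, by 1.02 (limma adjusted p = 0.0284), while AOC2, an allene oxide cyclase, fell by 1.17 (limma adjusted p = 0.0287). AOC2 had 9361, 3088 and 3287 normalised counts in Phase 1, then 10281, 14775 and 11986 in Phase 0, and 11896, 11184 and 8213 in Control. Its Phase 1 replicate 1 stood within the Control range, and its call against Control was lost without Phase 1 replicate 2 or 3 (limma adjusted p = 0.107 and 0.098), without Control replicate 1 (0.0736) and without Control replicate 2 (0.0674). Without Phase 1 replicate 1, LOX4 rose by 1.19 (limma adjusted p = 0.0459) and ACX1 by 0.58 (limma adjusted p = 0.0448). The log2 difference of AOC2 was then -1.69. The rises of LOX4 and ACX1 were lost without Control replicate 3 (limma adjusted p = 0.0619 for LOX4 and 0.0875 for ACX1). None of the 13 passed between Phase 0 and Control, where limma gave 2 at an unadjusted p under 0.05.

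Of 8 tested turnover genes, 3 rose and 1 fell in Phase 1 over Control, where 17.4% of all tested genes rose and 18.6% fell. JMT, the jasmonate methyltransferase, had 2978, 1017 and 1041 normalised counts in Phase 1, then 153, 165 and 214 in Phase 0, and 122, 156 and 107 in Control, 11.5-fold higher in Phase 1 than in Control (log2 3.52, limma adjusted p = 6.55e-05). ST2A, a sulfotransferase of hydroxyjasmonate, had 124, 88 and 152 normalised counts in Phase 1, then 644, 583 and 274 in Phase 0, and 615, 824 and 840 in Control, and fell by 2.66 on the log2 scale in Phase 1 against Control (limma adjusted p = 0.000157). Both genes kept Phase 1 apart from the other groups in every library. ILL6 (1.85, limma adjusted p = 0.0308) and JRG21, a jasmonate oxidase (1.95, limma adjusted p = 0.0391), also rose in Phase 1 over Control. Each lost its call without any of several single libraries, with limma adjusted p = 0.0619 and 0.092 for ILL6 without Control replicates 2 and 3. Without Phase 1 replicate 1 the log2 difference of ILL6 was 1.00 and that of JRG21 1.14. For JRG21 the limma adjusted p was 0.13 without Phase 1 replicate 1, 0.0511 without Phase 1 replicate 2, 0.0506 and 0.0575 without Phase 0 replicates 2 and 3, and 0.0705 and 0.119 without Control replicates 1 and 3.

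Of 9 tested jasmonate output genes, 5 rose and 2 fell in Phase 1 over Control, where 17.4% of all tested genes rose and 18.6% fell. The remaining 2, ERF1 and TAT3, had log2 differences of 1.53 and 1.66 and did not pass (limma adjusted p = 0.105 and 0.106). VSP2, a vegetative storage protein induced through MYC factors, had 52281, 8292 and 10021 normalised counts in Phase 1, then 781, 1482 and 1754 in Phase 0, and 155, 2179 and 206 in Control (Phase 1 against Control, log2 5.30 ± 0.95 SE, limma adjusted p = 0.00175). Phase 1 lay far above the rest, and Control replicate 2 stood about as high as Phase 0. VSP1 rose by 5.72 (limma adjusted p = 0.00114) and CORI3 by 2.04 (0.0176). Without Phase 1 replicate 1, VSP1 was 23.0-fold higher than in Control against 52.8-fold with it, VSP2 22.1-fold against 39.5-fold, and CORI3 2.57-fold against 4.11-fold, all still past the threshold. Leaving out single libraries gave log2 differences over Control from 4.52 to 6.50 for VSP1 and from 4.46 to 6.50 for VSP2, each highest without Control replicate 2. Against Phase 0, VSP2 rose by 3.69 (limma adjusted p = 0.0154), VSP1 by 3.51 (0.0197) and the chlorophyllase gene CLH1 2.82-fold (0.0381). CORI3 lost its call without Control replicate 1 or 3 (limma adjusted p = 0.0577 and 0.0563). The rises over Phase 0 were lost for VSP2 without Phase 1 replicate 1 or Phase 0 replicate 1 (limma adjusted p = 0.0536 and 0.0552), for VSP1 without Phase 0 replicate 1 or 2 (0.0695 and 0.0501) and for CLH1 without any 1 of the Phase 0 libraries (0.0773 to 0.0993) or Control replicate 3 (0.0535). Without Phase 1 replicate 1 the differences over Phase 0 were 2.85 for VSP2, 2.31 for VSP1 and 0.76 for CLH1.

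PDF1.2, a defensin gene of the ethylene and jasmonate branch, had 903, 211 and 271 normalised counts in Phase 1, then 3301, 4884 and 2678 in Phase 0, and 1582, 1080 and 1551 in Control. Phase 0 lay above Control and Phase 1 below it, with no overlap, and PDF1.2 in Phase 1 fell by 1.89 against Control (limma adjusted p = 0.00904) and fell by 3.23 against Phase 0 (limma adjusted p = 0.000548), or -3.87 without Phase 1 replicate 1. Its difference between Phase 0 and Control was 1.34 (limma adjusted p = 0.149). ORA59, the ERF factor upstream of PDF1.2, had 8, 1 and 6 normalised counts in Phase 1, then 15, 15 and 3 in Phase 0, and 118, 27 and 53 in Control, and fell by 3.49 in Phase 1 against Control (limma adjusted p = 0.00538), or -2.83 without Phase 1 replicate 2 (limma adjusted p = 0.02). The Phase 1 level of ORA59 was near the limit of detection, so the size of its fall is uncertain. None of the 9 output genes passed between Phase 0 and Control, where limma gave 4 at an unadjusted p under 0.05.

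Clock genes differed between the groups, while touch and salicylate genes and cell-type markers varied both between and within groups. The part of all these genes in the JAZ results was not tested. Of 7 evening clock genes, 6 fell in Phase 1 against Control, where 18.6% of all tested genes fell. In Phase 0 against Control 5 of them rose, where 1.28% of all tested genes rose. Of 5 morning and day genes 4 rose in Phase 1 against Control, where 17.4% of all tested genes rose. For these clock genes a difference in hour of harvest and an effect of salt cannot be told apart. The same holds for the JAZ genes and the other gene lists, which were compared between the same groups. LHY, a morning transcription factor, had 7626, 6097 and 5034 normalised counts in Phase 1, then 56, 117 and 64 in Phase 0, and 100, 95 and 96 in Control. FKF1, a photoreceptor of the evening phase, had 10, 15 and 6 normalised counts in Phase 1, then 1453, 1302 and 1511 in Phase 0, and 336, 390 and 361 in Control. Among 6 salicylate-responsive genes 2 fell in Phase 1 against Control, where 18.6% of all tested genes fell. PR1, a pathogenesis-related gene, had 246, 329 and 60 normalised counts in Phase 1, then 2486, 14107 and 4773 in Phase 0, and 11671, 804 and 816 in Control. Of 9 touch-responsive genes 1 fell in Phase 0 against Control, where 309 of 18650 tested genes fell. In Phase 1 against Control 2 of the 9 fell, a share near the 18.6% of all tested genes that fell. TCH4, a cell wall enzyme gene induced by touch, had 87, 125 and 146 normalised counts in Phase 1, then 82, 53 and 100 in Phase 0, and 788, 845 and 222 in Control. The 4 leaf mesophyll markers summed to 863692 to 1023060 normalised counts in Phase 1, 887077 to 1047760 in Phase 0 and 1052742 to 1194095 in Control, so every Control library lay above every salt-treated one, although none of the 4 markers passed the test in any comparison. The root marker CASP1 summed to at most 2, while flower and seed markers were not analysed here. The 2 trichome markers summed to 819 to 918 in Phase 1, 199 to 302 in Phase 0 and 227 to 324 in Control. That difference lay in TRY (mean 806 in Phase 1, 198 in Control), while GL2 averaged 77.3 and 65.3, and 1 of the 2 passed. The 2 phloem markers went opposite ways between Phase 1 and Control. SUC2 averaged 2335 in Phase 1 and 4001 in Control and fell, while APL averaged 913 and 636 and rose. Their sums, 2951 to 3424 in Phase 1, 3959 to 4186 in Phase 0 and 4056 to 5466 in Control, mostly follow SUC2. Myrosin cell markers summed to 42662 to 88554 in Phase 1, 98534 to 101539 in Phase 0 and 45547 to 107538 in Control. Guard cell markers summed to 1860 to 2161 in Phase 1, 1744 to 1972 in Phase 0 and 1463 to 1800 in Control. The difference between Phase 1 and Control lay in KAT1 (mean 1271 in Phase 1, 952 in Control). FMA averaged 317 and 332, MYB60 389 and 380, and SPCH 7.33 and 10.3. Of 3 tested guard cell markers 1 rose in Phase 1 against Control. Library totals ran from 22786946 to 25522714 normalised counts in Phase 1, 24136851 to 25513236 in Phase 0 and 25801397 to 27820610 in Control. Organelle genes took 0.605% of the normalised counts in Phase 0 replicate 2 and at most 0.0575% in the other 8 libraries.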

How the data were processed

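Leaf RNA was sequenced with reads of 75 bases, 3 libraries a group. STAR, featureCounts and DESeq2 are named in the submitters' processing notes with build TAIR10. The values form a score that the authors deposited as normalised counts rounded to whole numbers, and since they are not raw counts no count test was run. Spacing between low values gave 19836334 to 27869310 reads in 7 libraries and was not settled for Phase 0 replicate 3 and Phase 1 replicate 3. A limit of 3 reads covers counting error only.

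Values were transformed as log2(value + 1). Genes with a mean of at least 10 (18650 of 21176) were fitted with limma 3.58.1 (R 4.3.3, trend option, all 9 libraries, Benjamini-Hochberg adjustment over all tested genes, threshold 0.05). The script was tested on simulated data. Members and gene lists were chosen with earlier results of these data known. All members are named, and from each pathway list up to 4 genes past the threshold with the largest difference per comparison, COI1, and the 6 genes most like the mean JAZ profile by Pearson's r; of the clock, touch and salicylate genes so named, only examples are given. JAZ4, JAZ11, ERF1 and TAT3 were added after their values were seen. Promoters and exon lengths came from RefSeq TAIR10.1, matched by locus for 21054 genes. No 75-base stretch of a JAZ transcript was found elsewhere (0 in all 10).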

Additional observations from a re-analysis of the deposited data

How the results depend on the processing

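JAZ9 in Phase 1 against Control passed under all 22 alternatives (limma adjusted p from 0.0016 to 0.0147). Leaving out single libraries gave 118 to 882 genes for Phase 0 against Control, 4892 to 6757 for Phase 1 against Control and 3379 to 6710 for Phase 1 against Phase 0, and 0, 3 to 5, and 0 to 3 JAZ genes. A threshold of 0.01 gave 124, 3918 and 2880 genes in those comparisons, with 1 JAZ gene for Phase 1 against Control and 0 for Phase 1 against Phase 0. Array weights gave 2645 genes for Phase 0 against Control; they were estimated gene by gene because the default estimate did not converge. Leaving out both Control replicate 1 and Phase 0 replicate 2, chosen after seeing the data, gave 212 genes for Phase 0 against Control and 0 JAZ genes for Phase 1 against Phase 0. Leaving out both Phase 1 replicate 1 and Phase 0 replicate 3, also chosen then, gave 162, 3995 and 2535 genes. Deviations from group means had correlations from -0.25 to 0.25 between same-numbered libraries, and from -0.34 to 0.33 between differently numbered ones. The labels do not say whether the numbers mark a shared batch, and with 3 libraries a group these values cannot settle it. A fit with the replicate block gave 372, 6261 and 4835 genes and 0, 4 and 2 JAZ genes, losing JAZ3 (limma adjusted p = 0.0546). The cause was not tested.

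Signs turned for members that did not pass. For Phase 0 against Control, JAZ6 ran from -0.065 to 0.15 when single libraries or both Phase 1 replicate 1 and Phase 0 replicate 3 were left out (-0.065 with both), and JAZ7 from -0.95 without Phase 0 replicate 3 to 1.7 without both Control replicate 1 and Phase 0 replicate 2, with -0.024 at a pseudocount of 0.5 and -0.12 under quantile normalisation. JAZ1 in Phase 1 against Control ran from -0.063 to 1.05 when single libraries were left out, the lowest without Phase 1 replicate 1, and was 1.18 with array weights. In Phase 1 against Phase 0, JAZ1 ran from -0.50 to 0.61, JAZ2 from -0.23 to 0.83 and JAZ12 from -0.37 to 0.35 when single libraries were left out, each lowest without Phase 1 replicate 1. With Phase 0 replicate 3 left out as well they were -0.36, -0.11 and -0.39. JAZ7 has no value at a mean of at least 50, and JAZ8 was tested only without the filter.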
